A study of Mus musculus with 6 samples.

Results

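G protein-coupled receptors outside the chemokine receptors were followed in luminal epithelial cells of the mouse mammary gland, taken as the 85 genes of the authors' deposited table whose symbol begins with the name stem of a numbered orphan (Gpr, Gprc), adhesion (Adgr), prostanoid, adrenergic, serotonin, muscarinic, histamine, purine, lysophospholipid, protease-activated, endothelin, neuropeptide Y or calcitonin-type receptor. They are 85 of 16701 listed genes, and of the 181 protein-coding genes of the GENCODE M21 annotation (GRCm38) that the same stems match, 82 are among them. The remaining 99, among them all histamine receptor genes and Calcr, were not analysed here. The groups were Ocln knockout mice (Ocln-/-, 3 libraries) and wild-type control mice (3 libraries), all at 7 weeks of age, with polyadenylated RNA of luminal cells sequenced in bulk. How the allele was made, in which cells it acts, the strain background and whether each library came from its own mouse were not stated in the sources at hand, so a p-value reflects the spread among these libraries, which may be technical in part.

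Receptors of this superfamily cross the membrane in 7 helices and pass the binding of a hormone, lipid, nucleotide or peptide on to a G protein inside the cell. Gs raises and Gi lowers cyclic AMP, Gq releases calcium, and G12/13 acts on the actin cytoskeleton. In the mammary gland such receptors carry signals from nerves, vessels and local lipids to the epithelium, and adhesion receptors bind neighbouring cells and matrix.

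The deposited table gives 1 mean level per gene over all 6 libraries, in normalized counts, and a log2 fold change of knockout over control with its standard error (SE). Values of single libraries were not at hand, so library depth is unknown and the level within each genotype cannot be given. Ocln itself was at 44.9 percent of control (95 percent interval 35.9 to 56.2) in the authors' deposited table. All 8 luminal markers looked up were listed, at mean levels from 13160 to 84080 before division by gene length. By the same measure, leukocyte markers reached at most 541 (Lyz2) and endothelial markers at most 1402 (Vwf) in the authors' deposited table. The 6 luminal progenitor markers had a median log2 fold change of 0.43, with 3 higher at an unadjusted p under 0.05 and Csn3 called lower, and the 6 hormone-sensing luminal markers had a median of -0.35, with 0 called. Their part in the receptor values below was not tested. In bulk RNA, fewer cells of a type and less RNA per cell cannot be told apart.

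The receptors lay low among the listed genes. Before division by gene length, their median mean level was 99.0 normalized counts, against 398.6 over all listed genes, and 34 of the 85 were below 50. Per kilobase of annotated exons, Gprc5a, a retinoic acid-inducible orphan receptor of class C, stood highest at 888 normalized counts per kilobase, computed from the authors' deposited table. F2rl1, which encodes the protease-activated receptor PAR2, followed at 866, computed from the authors' deposited table. Next in order of level per kilobase, from the authors' deposited table, came the adhesion receptor gene Adgrg1 (GPR56, a receptor for collagen) at 753, the Golgi protein gene Gpr108 at 622, and Gprc5c at 293. The genes down to Gpr108 stood above the rest, Gprc5c being followed by Gpr137 at 208 per kilobase in the authors' deposited table. The spread of these levels over libraries is not known, so neighbours in the order cannot be told apart by a test.

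**Figure D1:**
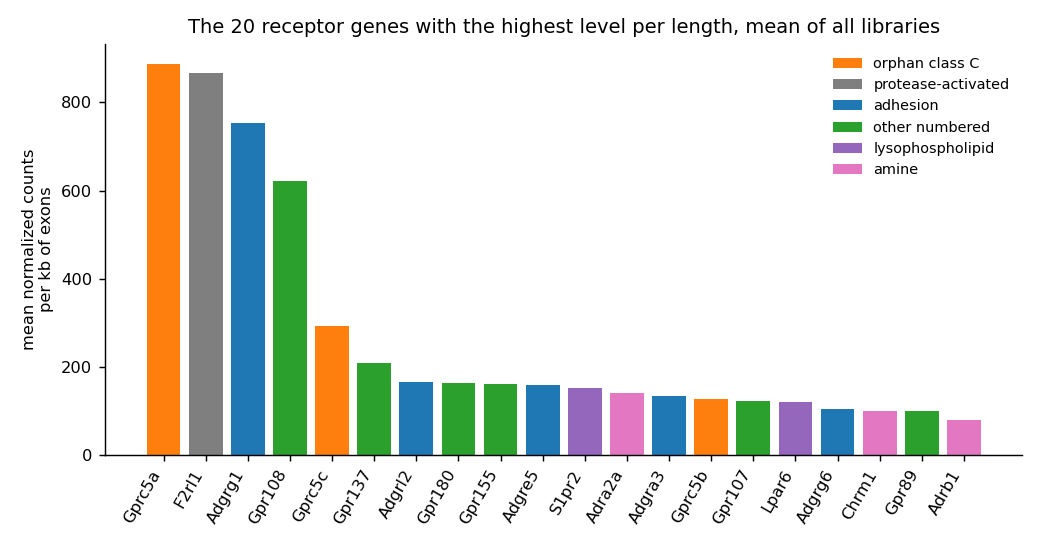
Mean normalized counts per kilobase of annotated exons (vertical axis, linear) for the 20 receptor genes with the highest values, the mean being over all 6 libraries of both genotypes and the colours marking ligand classes. Gprc5a (888), F2rl1 (866), Adgrg1 (753) and Gpr108 (622) stand above all others shown, and no error can be drawn because levels per library were not used.

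Of the 85 receptors, 3 passed the authors' DESeq2 test at an adjusted p under 0.05. Gprc5a and Adgrl3 rose and Ptger3 fell in the knockout. The 2 rises compare with 0.808 percent of all listed genes called higher, and the 1 fall with 0.275 percent called lower. Both directions together make 3.53 percent of the receptors, against 1.08 percent of all listed genes. At an unadjusted p under 0.05, 12 receptors were higher and 4 lower, against 5.23 percent of all genes higher and 3.83 percent lower. The sum of 16 is 18.8 percent of the receptors, against 9.07 percent of all genes. Positive values stood in 50 receptors and negative ones in 35, and the median log2 fold change was 0.09, against -0.01 over all genes.

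**Figure D2:**
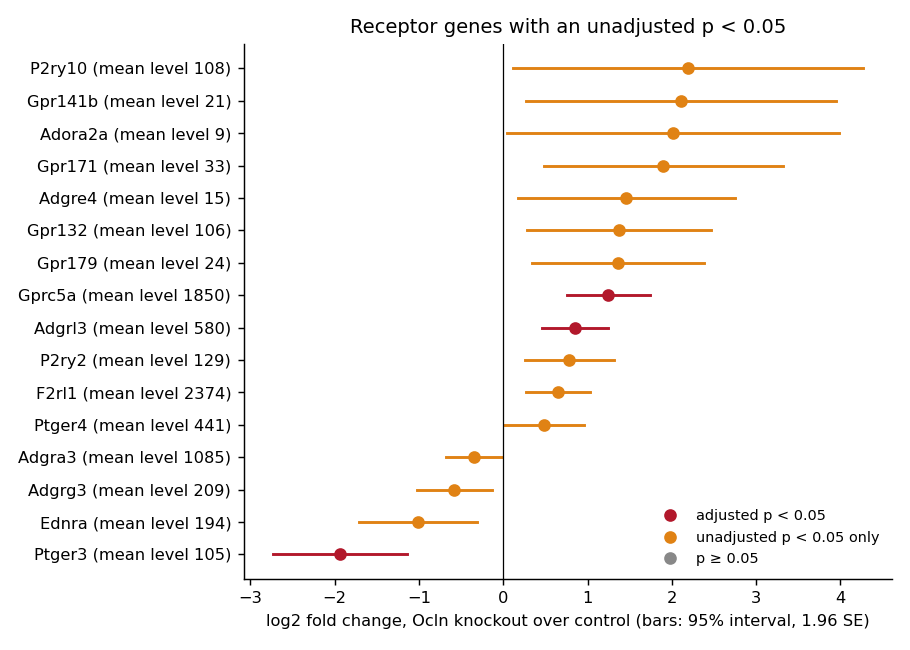
The 16 receptor genes with an unadjusted p under 0.05, each with its log2 fold change of Ocln knockout over control (points) and its 95 percent interval (bars, 1.96 SE), and its mean level in normalized counts beside the name. Gprc5a (1.24), Adgrl3 (0.85) and Ptger3 (-1.94), in red, passed the adjusted threshold, while the largest positive values, such as P2ry10 at 2.19, have the widest bars.

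Among the orphan receptors of class C, Gprc5a rose to 237 percent of the control level (95 percent interval 169 to 333). The authors' deposited table gives 1.24 ± 0.25 (SE) on the log2 scale (DESeq2 adjusted p = 0.000281), with 1850 normalized counts on average. In GRCm38 coordinates the gene occupies bases 135065651 to 135084709 of chromosome 6 (plus strand). Gprc5a is best known for being induced by retinoic acid and, in mouse lung, for restraining tumour formation. Its paralogs stood near zero in the authors' deposited table, Gprc5c at -0.14 ± 0.15 and Gprc5b at 0.08 ± 0.20. The 95 percent intervals of these paralogs, 73.9 to 111 percent of control for Gprc5c and 80.2 to 139 percent for Gprc5b in the authors' deposited table, lie below that of Gprc5a.

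Among the 4 listed prostanoid receptors, all of them receptors for prostaglandin E2, Ptger3 fell to 26.1 percent of the control level (95 percent interval 15.1 to 45.1). It encodes EP3, which acts mainly through Gi and so lowers cyclic AMP. On the log2 scale this was -1.94 ± 0.40 (SE) in the authors' deposited table (DESeq2 adjusted p = 0.000488), with 105 normalized counts on average. It occupies bases 157566892 to 157645888 of chromosome 3 (GRCm38, plus strand). Ptger4 encodes EP4, which acts through Gs, and stood at 0.49 ± 0.24 in the authors' deposited table, with an unadjusted DESeq2 p of 0.0421 and an adjusted p of 0.518. Ptger2, the other Gs-coupled receptor of the group, stood at 0.09 ± 0.43 in the authors' deposited table, and Ptger1, which raises calcium, at 0.21 ± 0.47. The exons of Ptger1 overlap annotated exons on the opposite strand, and whether reads were counted by strand is not given, so its value is uncertain.

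Of the enzymes that make and break down the ligand of these receptors, a group chosen after its values were seen, 1 of 6 passed. Of all listed genes 1.08 percent passed. Ptges, the inducible terminal synthase of prostaglandin E2, rose 2.11-fold in the authors' deposited table (log2 fold change 1.08 ± 0.22 SE, DESeq2 adjusted p = 0.000488). The cyclooxygenase genes upstream of it did not pass, with Ptgs1 at 0.00 ± 0.34 and Ptgs2 at -0.06 ± 0.37 in the authors' deposited table. The other synthases did not pass either, Ptges2 standing at -0.08 ± 0.20 and Ptges3 at 0.05 ± 0.16 in the authors' deposited table. Hpgd, which breaks prostaglandin E2 down, stood at 0.38 ± 0.34 in the authors' deposited table.

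**Figure D3:**
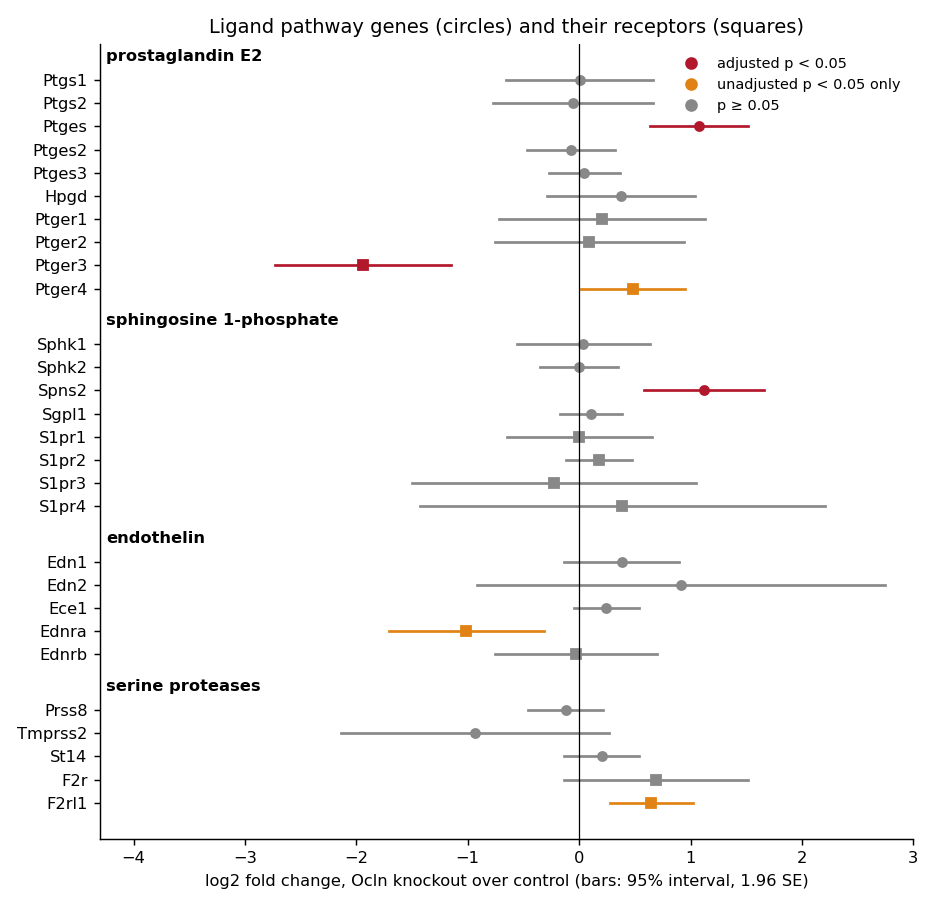
Log2 fold change of Ocln knockout over control with its 95 percent interval (bars, 1.96 SE) for genes that make, export, break down or activate 4 ligand systems (circles) and for their receptors (squares). In the prostaglandin E2 group, Ptges lies at 1.08 and Ptger3 at -1.94, and in the sphingosine 1-phosphate group Spns2 lies at 1.12 while its receptors lie between -0.23 and 0.39.

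Of the 19 adhesion receptors, which have long extracellular parts that bind other cells or matrix, Adgrl3 rose and 0 fell. That is 5.26 percent, against 1.08 percent of all genes in either direction. Adgrl3 encodes latrophilin-3, a partner of FLRT and teneurin proteins at synapses. It rose to 180 percent of control (95 percent interval 137 to 236), which is 0.85 ± 0.20 (SE) on the log2 scale in the authors' deposited table (DESeq2 adjusted p = 0.00465), with 580 normalized counts on average. The gene spans 81020138 to 81825133 of chromosome 5 on the plus strand (GRCm38), and 8.91 percent of its exonic bases are shared with an antisense gene that is not listed in the table. The other latrophilins stood near zero in the authors' deposited table, Adgrl1 at -0.10 ± 0.23, Adgrl2 at 0.09 ± 0.16 and the endothelial member Adgrl4 at 0.00 ± 0.33. The upper bounds of Adgrl1 (0.36) and Adgrl2 (0.40) on the log2 scale lie below the lower bound of Adgrl3 (0.45), computed from the authors' deposited table, while that of Adgrl4 (0.65) does not. Differences between paralogs were not tested. Below the adjusted threshold, Adgra3 (-0.35 ± 0.17) and Adgrg3 (-0.58 ± 0.23) were lower and Adgre4, known from myeloid cells, was higher (1.46 ± 0.66) at an unadjusted DESeq2 p under 0.05 in the authors' deposited table. Adgrg1, the adhesion receptor with the highest level per kilobase, stood at -0.30 ± 0.23 in the authors' deposited table, and its interval of 59.2 to 112 percent of control does not reach a rise like that of Adgrl3.

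**Figure D4:**
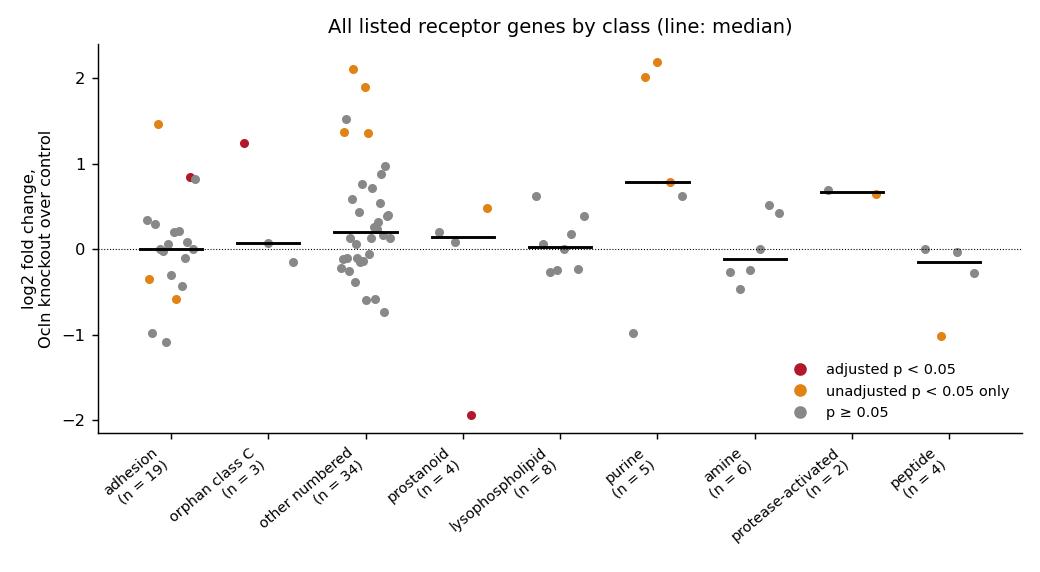
Log2 fold change of Ocln knockout over control for all 85 listed receptor genes, by class, with black lines at class medians and colours marking the outcome of the DESeq2 test. Class medians lie between -0.15 (peptide) and 0.78 (purine), and the 3 red points are Gprc5a, Adgrl3 and Ptger3.

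Both listed protease-activated receptors had positive values without passing. These receptors are switched on when a serine protease cuts their outer end, and F2rl1 is the epithelial member cut by trypsin-like enzymes. F2rl1 stood at 157 percent of control (95 percent interval 121 to 203), or 0.65 ± 0.19 on the log2 scale in the authors' deposited table, and lay just outside the threshold (DESeq2 adjusted p = 0.0597). F2r, the thrombin receptor, stood at 0.69 ± 0.42 in the authors' deposited table (DESeq2 adjusted p = 0.682). Both lie on chromosome 13, as Ocln does, F2rl1 at 4.97 Mb and F2r at 4.88 Mb from it. Within 5 Mb of Ocln, a distance chosen after the values were seen, 4 of 77 other listed genes were called, all higher, which is 5.19 percent, against 0.808 percent of all genes called higher. At an unadjusted p under 0.05 stood 16 of the 77, or 20.8 percent, against 9.07 percent of all genes. F2rl1 and F2r are themselves among the 77, and F2rl1 is among the 16. What this position contributes to the value of F2rl1 was not tested. Among proteases, St14 (matriptase) stood at 0.20 ± 0.17, Prss8 (prostasin) at -0.12 ± 0.17 and Tmprss2 at -0.94 ± 0.61 in the authors' deposited table, and none of these 3 passed.

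None of the 5 purine receptors, 8 lysophospholipid receptors, 6 amine receptors, 4 peptide receptors and 34 other numbered receptors passed over all genes. Of all listed genes 1.08 percent passed, so a lack of calls in classes this small says little about them. P2ry2, which responds to ATP and UTP through Gq, stood at 0.78 ± 0.27 in the authors' deposited table (unadjusted DESeq2 p = 0.00374, adjusted p = 0.17). The adenosine receptor gene Adora2a, coupled to Gs, stood at 4.03-fold in the authors' deposited table, with a 95 percent interval of 1.03-fold to 15.8-fold and only 8.57 normalized counts on average. Adora1, coupled to Gi, stood at -0.98 ± 0.51 in the authors' deposited table, with an unadjusted DESeq2 p of 0.0562. Entpd1, which breaks extracellular ATP down, stood at 0.63 ± 0.30 and Entpd3, with a like activity, at -0.53 ± 0.27 in the authors' deposited table, neither passing over all genes.

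Among peptide receptors, Ednra, the endothelin receptor of smooth muscle and stroma, stood at 49.6 percent of control (95 percent interval 30.5 to 80.5). This is -1.01 ± 0.36 on the log2 scale in the authors' deposited table (unadjusted DESeq2 p = 0.00453, adjusted p = 0.189). Ednrb stood at -0.03 ± 0.37, and the ligand gene Edn1 at 0.38 ± 0.26, in the authors' deposited table. Of 6 fibroblast markers, Dcn fell (-1.36 ± 0.35, DESeq2 adjusted p = 0.0134) in the authors' deposited table, while the other 5 stood between 0.01 and 0.26. The 8 myoepithelial markers had a median of -0.15, and the 4 listed pericyte markers a median of 0.03. What these cells contribute to the values of Ednra and Ptger3 was not tested. Calcrl, which forms receptors for adrenomedullin and CGRP with RAMP proteins, stood at 0.00 ± 0.26 in the authors' deposited table, within 70.3 to 142 percent of control. Its partners Ramp1 (0.02 ± 0.33) and Ramp2 (0.16 ± 0.33) missed the threshold in the authors' deposited table.

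Lysophospholipid receptors ranged from -0.27 to 0.63 on the log2 scale, with a median of 0.03. S1pr2, the sphingosine 1-phosphate receptor with the highest level per kilobase, stood at 0.18 ± 0.15 in the authors' deposited table, and its interval of 92.1 to 139 percent of control does not reach that of Gprc5a. Lpar6, a lysophosphatidic acid receptor acting through G12/13, stood at -0.24 ± 0.18 in the authors' deposited table. Spns2, which exports sphingosine 1-phosphate from cells, rose 2.18-fold in the authors' deposited table (log2 fold change 1.12 ± 0.28 SE, DESeq2 adjusted p = 0.00817). The kinase genes that make the lipid, Sphk1 (0.04 ± 0.31) and Sphk2 (0.00 ± 0.18), missed the threshold in the authors' deposited table.

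Amine receptors included Adra2a, an adrenergic receptor coupled to Gi, at -0.27 ± 0.68 and the muscarinic receptor gene Chrm1 at 0.01 ± 0.26 in the authors' deposited table. The adrenergic receptor gene Adrb1, coupled to Gs, stood at -0.47 ± 0.27 and missed the threshold in the authors' deposited table. Of the serotonin receptor genes only Htr2b was listed, with 12.6 normalized counts on average in the authors' deposited table.

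Among the numbered receptors, the authors' deposited table lists Gpr108 (-0.11 ± 0.16) and Gpr107 (-0.22 ± 0.16), a related pair of Golgi proteins, and neither passed. Gpr137b (-0.26 ± 0.30) and Gpr137b-ps (0.13 ± 0.23) in the authors' deposited table are a gene and its annotated pseudogene, and reads may have been split between them. Gpr179, known from retinal bipolar cells, stood at 1.36 ± 0.52 in the authors' deposited table, with 23.6 normalized counts on average.

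Of 15 receptors known from leukocytes, named after their values were seen and given here without a test, 13 had positive values and 2 negative ones. The positive share was 86.7 percent, against 48.8 percent of all genes. The median log2 fold change of the 15 was 0.72, against 0.03 for the other 70 receptors. The 15 hold 13 of the 50 positive values among all receptors, and the other 70 receptors hold 37. None of the 15 passed over all genes, and their median mean level was 22.7. Of the 15, 10 lay below a mean level of 50. All 34 receptors below that level, these 10 included, had a median of 0.35, with 70.6 percent positive. All listed genes below it had a median of 0.06, with 54.2 percent positive. The 51 receptors at or above it had a median of 0.00, with 51.0 percent positive, against -0.02 and 47.2 percent for all genes there. The part of low level in the contrast was not tested. At an unadjusted DESeq2 p under 0.05, 5 of the 15 were higher and 1 was lower. Of all listed genes, 5.23 percent were higher and 3.83 percent lower at that p. Of all genes below a mean level of 50, 7.64 percent had such a p in either direction. The 5 higher ones in the authors' deposited table were P2ry10 (2.19 ± 1.06), Gpr141b (2.11 ± 0.94), Gpr171 (1.89 ± 0.72), Adgre4 (1.46 ± 0.66) and Gpr132 (1.37 ± 0.56). The 1 lower, from the same leukocyte list, was Adgrg3 (-0.58 ± 0.23). P2ry10, Gpr171 and Gpr132 are known from lymphocytes. Gpr141b is annotated in GENCODE M21 as a long noncoding RNA and not as a protein-coding gene. Adgre1, which encodes the macrophage surface protein F4/80, stood at 0.30 ± 0.37 in the authors' deposited table, and Adgre5 (CD97), found on many cell types, at 0.00 ± 0.22. The leukocyte marker lists had positive medians. All 11 macrophage and monocyte markers were listed, with a summed mean level of 2286 and a median of 0.44, and 0 passed the DESeq2 test, 1 being higher at an unadjusted p under 0.05. For lymphocytes, 5 of 10 markers were listed, with a summed mean level of 249 and a median of 1.28, and Cd79a, Cd3e, Cd3d and Nkg7 were among those not listed. None of these 5 had an adjusted or unadjusted DESeq2 p under 0.05. Trbc2, with a mean level of 132, stood at 0.22 ± 0.47 and Cd79b, the median marker, at 1.28 ± 1.01 in the authors' deposited table. For neutrophils, 3 of 6 markers were listed, with a summed mean level of 118 and a median of 1.89, and Ly6g, Retnlg and Cxcr2 were not among them. S100a8 rose (2.12 ± 0.53, DESeq2 adjusted p = 0.00935), while S100a9 stood at 1.89 ± 0.57 and Csf3r at 0.20 ± 0.53 in the authors' deposited table, neither passing over all genes. The part of leukocyte RNA in the receptor values was not tested.

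Grouped by their best-known G protein, again after their values were seen and without a test, 8 Gs-coupled receptors had a median log2 fold change of 0.16, 7 Gi-coupled receptors a median of -0.27 and 10 Gq-coupled receptors a median of 0.47. Only Ptger3 of these 25 passed over all genes, where 1.08 percent of all listed genes passed. The median SE was 0.27 in the Gs, 0.68 in the Gi and 0.36 in the Gq group, so these medians are descriptive only. Positive values stood in 5 of 8 Gs, 3 of 7 Gi and 8 of 10 Gq receptors, against 48.8 percent of all genes.

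Of 132 genes of G proteins, their regulators and effectors, and of ligands and the enzymes that make them, 99 were listed, 31 of them on the ligand side. Of the 99, 2 rose, Ptges and Spns2, both on the ligand side, and 1 fell, Gnao1. Together they are 3.03 percent, against the 1.08 percent of all genes. Gnao1, the alpha subunit of Go, a relative of Gi, fell to 29.8 percent of control (95 percent interval 19.5 to 45.6). The authors' deposited table gives -1.75 ± 0.31 (SE) on the log2 scale (DESeq2 adjusted p = 1.79e-05), with only 75.4 normalized counts on average. Of the Gi subunit genes, Gnai1 stood at -1.08 ± 0.55 (unadjusted DESeq2 p = 0.0489), Gnai2 at -0.11 ± 0.16 and Gnai3 at 0.07 ± 0.14 in the authors' deposited table. Gnaz, of the same family, stood at -0.57 ± 0.27 in the authors' deposited table (unadjusted DESeq2 p = 0.0378), and neither Gnai1 nor Gnaz passed over all genes. The stimulatory subunit gene Gnas stood at 0.15 ± 0.17 and the Gq subunit gene Gnaq at -0.06 ± 0.17 in the authors' deposited table. Of the 13 alpha subunit genes, 9 had negative values and 4 positive ones, or 30.8 percent positive, against 48.8 percent of all genes. The 9 listed beta and gamma subunits included 0 at an adjusted or unadjusted p under 0.05, against 1.08 and 9.07 percent of all genes.

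Of the regulators and effectors, 4 more had an unadjusted DESeq2 p under 0.01 without passing over all genes. The adenylyl cyclase gene Adcy5, which Gi inhibits, stood at -1.18 ± 0.35 in the authors' deposited table (DESeq2 adjusted p = 0.0652). Arrb1, which encodes the receptor-desensitizing protein beta-arrestin 1, stood at 0.63 ± 0.20 in the authors' deposited table (DESeq2 adjusted p = 0.0849). Rgs3, which speeds the switching off of Gi and Gq, stood at -0.72 ± 0.23 (DESeq2 adjusted p = 0.0968), and Arhgef1, an exchange factor downstream of G12/13, at 0.40 ± 0.14 (DESeq2 adjusted p = 0.172) in the authors' deposited table. Of 41 listed receptors that the symbol stems do not match, out of 139 looked up, 0 rose and 2 fell, which is 4.88 percent, against 1.08 percent of all genes in either direction. At an unadjusted p under 0.05, 5 of the 41 were higher and 4 lower, against 5.23 percent of all genes higher and 3.83 percent lower. Both directions together make 22.0 percent of the 41, against 9.07 percent of all genes. The 2 that fell at an adjusted p under 0.05 were Oxtr and Lgr5. Oxtr, the oxytocin receptor gene, stood at 34.2 percent of control and Lgr5, a stem cell receptor gene, at 20.6 percent in the authors' deposited table.

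Precision was lower for receptors with low levels. The median SE was 0.37 for the receptors, against 0.23 for all genes, and it was 0.66 for the 34 receptors below a mean level of 50. Of these 34, 0 passed the DESeq2 test, while 0.429 percent of all genes below that level passed. An unadjusted p under 0.05 was found for 5 of the 34, all higher, or 14.7 percent. Of all 3730 genes below that level, 7.64 percent had such a p, 180 higher and 105 lower. Among the 51 receptors at or above a mean level of 50, 3 passed, or 5.88 percent, against 1.27 percent of all genes at or above it. By the authors' own calls in the deposited table, made on another rule, 8 receptors were Up and 1 Down, or 10.6 percent, against 2.79 percent of all genes. These calls include Gprc5a and Ptger3 but not Adgrl3, which the authors' deposited table calls Stable. Of the 8 Up receptors, only Gprc5a had a DESeq2 adjusted p under 0.05, the others lying between 0.273 and 0.532. Below a mean level of 50, 5 receptors had an authors' call, or 14.7 percent, against 6.41 percent of all genes. At or above that level the shares were 7.84 percent of the receptors and 1.75 percent of all genes.

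**Figure D5:**
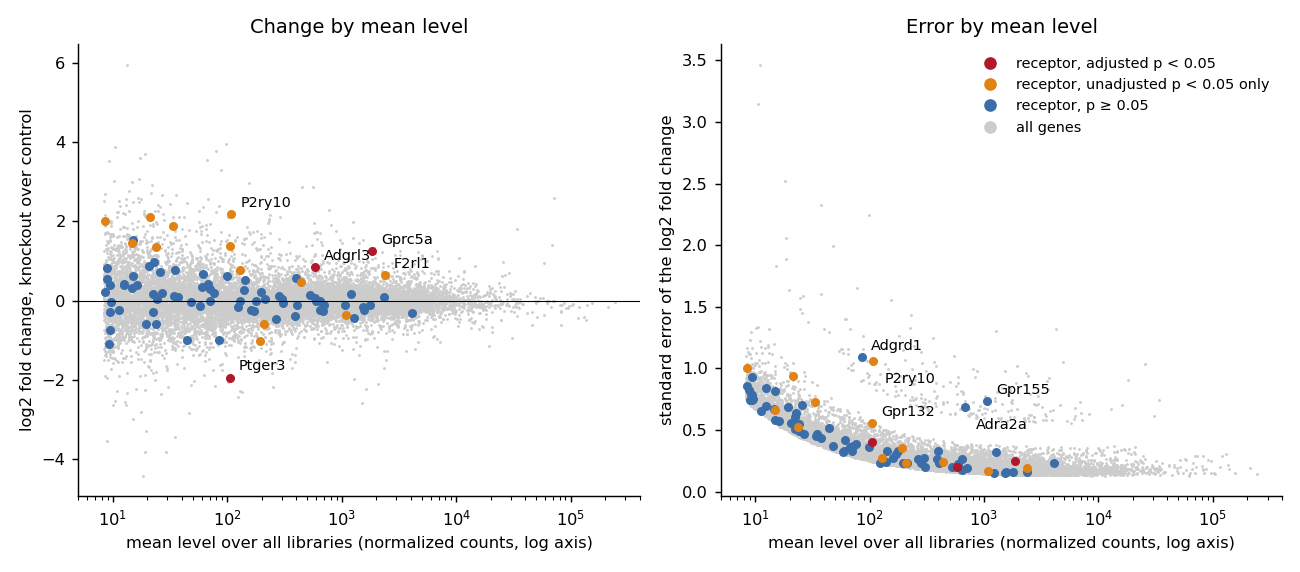
Log2 fold change of Ocln knockout over control (left) and its SE (right) against the mean level over all 6 libraries (log axis), with all 16701 listed genes in grey and the 85 receptors in colour. The SE falls with the level in the main cloud, and Gpr155, Adra2a, P2ry10 and Adgrd1 lie in a separate band above it.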

How the data were processed

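The deposited data used here are the authors' table of 1 comparison, Ocln knockout over control. The submitters' processing notes name DESeq2, whose column names the table has, and mouse build mm10. Neither aligner, counter, annotation nor model is named there. The columns of the authors' table are, per the file headers, a mean level (a signal, in normalized counts), a log2 fold change and its SE, a Wald score, p-values and adjusted p-values, and another kind of value, the authors' Up, Down or Stable call. The adjusted p-values differ from a Benjamini-Hochberg adjustment over all 16701 genes by at most 0.51 percent. The lowest mean level listed is 8.35. No test per gene was added, since no values per library were at hand, so the planned edgeR fit did not apply. The counts and intervals (1.96 SE either side) were computed with Python 3.11.15, pandas 2.3.3 and scipy 1.17.1, and the adjustment code was tested on simulated data.

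Levels per kilobase divide the mean level by the union of annotated exons in GENCODE M21 (GRCm38), which has 84 of the 85 receptors by symbol. The members, the ligand classes, the marker and pathway lists and the naming rule were chosen with earlier results of these data known. Named genes are the receptors with an unadjusted p under 0.05, the 2 of each class with the highest mean level, and pathway genes with an adjusted p under 0.05 or an unadjusted p under 0.01. All other genes named, such as paralogs, ligand enzymes and the leukocyte and coupling groups, were chosen after their values were seen. Alternatives were the authors' own calls, an adjusted p under 0.01, a log2 fold change of 1 or more in size, genes at a mean level of at least 50, numbered Gpr genes left out, Wald scores scaled down for their inflation (factor 1.18), and scores centred within 20 bins of exonic length, the last chosen after seeing the data.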

Additional observations from a re-analysis of the deposited data

How the results depend on the processing

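The calls of Gprc5a, Ptger3 and Adgrl3 held at an adjusted p of 0.01, at a mean level of at least 50, without the numbered Gpr genes, after division by the inflation (Adgrl3 adjusted p = 0.0195) and after the trend with exonic length was taken out (Adgrl3 adjusted p = 0.0262). With a log2 fold change of 1 or more in size required, the receptors called higher were 1, since Adgrl3 is below that size. Under the authors' own call they were 8, or 9 receptors in both directions. F2rl1 stayed outside the threshold in each of these adjustments, with adjusted p-values from 0.0502 to 0.153. In the pathway list, 2 genes were called lower once the length trend was taken out, since Adcy5 then passed (adjusted p = 0.042). No paired analysis was possible because the table holds no values per library, and for the same reason leaving out libraries, another normalization and another tool were not run. Depth per library is unknown, and for receptors below a mean level of 50 the SE was at least 0.37, so modest changes of these could not be detected.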

Other observations

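Some receptors at moderate levels had SEs far above those of genes of like level. Of the 85 receptors, 4 (4.71 percent) had an SE at least 2 times the median of their level bin, the genes being divided into 20 equal bins by mean level, against 278 of all 16701 genes (1.66 percent). They were chosen after their values were seen. Gpr155, which encodes a lysosomal cholesterol-sensing protein, had an SE of 0.74 in the authors' deposited table, 4.18 times the median of its bin, at a mean level of 1069. P2ry10 stood at 3.71 times, Adra2a at 3.68 times and Adgrd1 at 3.31 times the median SE of their bins. For Gpr155 the 95 percent interval runs from 0.342-fold to 2.53-fold and for Adra2a from 0.328-fold to 2.11-fold, so the table bounds their change only loosely despite their levels. Which libraries give rise to these SEs was not tested.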
